A study of Homo sapiens with 6 samples.

Results

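The expression of 10 Polycomb subunit genes, out of 25369 genes counted, was compared between Caki2 cells that carried PBRM1 and Caki2 cells that carried an empty vector. The genes were taken by symbol: EZH1, EZH2, EED, SUZ12 and JARID2 encode subunits of Polycomb repressive complex 2 (PRC2), and BMI1, RNF2, CBX2, CBX7 and CBX8 encode subunits of Polycomb repressive complex 1 (PRC1). Caki2 is a human clear cell renal carcinoma line, labelled as having no PBRM1 expression when it carries the empty vector. The paper reports PBRM1 transcript but no PBRM1 protein in Caki2, and a short deletion in an exon of the gene. The control cells (Caki2+Vector, 3 samples) held a doxycycline-inducible lentiviral vector with no insert, the other cells (Caki2+PBRM1, 3 samples) held the same type of vector with full-length PBRM1, and doxycycline at 2 µg/mL was present in both. Both lines were stably infected and drug-selected, and whether each is a clone or a pool of infected cells is not given in the sources used here. Each group was a line of its own, so the presence of PBRM1 and any other difference between the lines cannot be told apart. The samples carry the replicate letters A, B and C in each group, and whether they came from separate cultures is not stated in the labels, so p-values measure the spread between these samples.

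Polycomb proteins keep genes silent through marks on histones. In PRC2, EZH2 or its paralog EZH1 methylates histone H3 at K27, SUZ12 and EED are needed for that activity, and JARID2 is an accessory subunit that helps PRC2 bind chromatin. In PRC1, RNF2 or RING1 places ubiquitin on histone H2A in partnership with a PCGF protein such as BMI1, and the CBX proteins read the methyl mark left by PRC2. SWI/SNF complexes, to which PBRM1 belongs as the defining subunit of PBAF, are known to oppose Polycomb and to change where it sits on the genome. The comparison asks whether the amounts of transcript for these subunits differed once PBRM1 was present.

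The RefSeq promoter windows (GRCh38.p14, from 250 bases before to 50 after an annotated start, 300 bases in the sense of the gene) were matched for 8 of the 10 genes, in 11 windows. CBX2 and CBX8 had no entry. Windows are shown for JARID2, the subunit gene with the clearest difference between the groups, and for the paralogs EZH1 and EZH2, the catalytic subunits. The second EZH2 window, not printed, held none of the 4 motifs marked here, as did the EZH1 window. Capitals mark matches, searched on both strands, to TATAAA as the letters of the box bound by TBP, to TGACGTCA as those of the cAMP response element, to TTTGGCGC as those of a site of the E2F type, and to CCAAT as those of the box bound by NF-Y, which reads ATTGG on the opposite strand. The 4 motifs were chosen after the promoters had been read.

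The JARID2 windows are chr6:15245819-15246118 and chr6:15248605-15248904, both on the plus strand. Of the 2 EZH2 windows, the one printed is chr7:148884242-148884541 and the EZH1 window is chr17:42744991-42745290, both on the minus strand.
JARID2, upstream start: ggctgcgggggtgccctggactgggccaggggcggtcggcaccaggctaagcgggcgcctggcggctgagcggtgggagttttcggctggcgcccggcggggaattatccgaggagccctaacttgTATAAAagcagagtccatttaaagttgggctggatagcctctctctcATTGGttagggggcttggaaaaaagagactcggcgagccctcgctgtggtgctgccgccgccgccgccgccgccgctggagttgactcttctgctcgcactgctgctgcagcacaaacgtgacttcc
JARID2, downstream start: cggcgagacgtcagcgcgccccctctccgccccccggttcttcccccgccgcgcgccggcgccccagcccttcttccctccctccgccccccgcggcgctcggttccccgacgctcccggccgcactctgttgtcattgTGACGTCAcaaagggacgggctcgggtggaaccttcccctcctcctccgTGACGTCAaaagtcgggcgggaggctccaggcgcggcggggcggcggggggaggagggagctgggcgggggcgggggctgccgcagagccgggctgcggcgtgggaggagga
EZH2: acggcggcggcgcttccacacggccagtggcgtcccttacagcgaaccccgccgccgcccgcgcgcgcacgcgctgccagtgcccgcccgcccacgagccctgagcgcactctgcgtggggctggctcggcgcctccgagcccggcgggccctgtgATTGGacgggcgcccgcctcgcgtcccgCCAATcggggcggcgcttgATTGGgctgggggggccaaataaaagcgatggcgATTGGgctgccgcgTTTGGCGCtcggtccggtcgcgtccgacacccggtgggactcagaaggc
EZH1: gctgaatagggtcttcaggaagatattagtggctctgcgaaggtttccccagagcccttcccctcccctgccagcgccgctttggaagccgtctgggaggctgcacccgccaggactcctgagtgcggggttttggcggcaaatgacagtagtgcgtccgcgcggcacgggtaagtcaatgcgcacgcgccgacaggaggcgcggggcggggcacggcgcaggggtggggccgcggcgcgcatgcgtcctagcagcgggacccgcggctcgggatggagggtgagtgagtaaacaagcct

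The upstream JARID2 window held 1 TATAAA, which 11.6% of 34796 promoter windows of that length held, and 1 CCAAT box, a match found in 34.6%. The downstream JARID2 window, with a G and C content of 76.3%, held 2 copies of TGACGTCA and neither of the former, and 1.84% of windows held that sequence. The printed EZH2 window held 4 CCAAT boxes and 1 TTTGGCGC at its annotated start, a match found in 0.652% of windows. The EZH1 window held none of the 4 motifs, which says only that these letters are not in it. The matches did not overlap each other. They describe the sequence and are not evidence of binding, and the counts per gene do not say which start was used.

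Reads that fell on genes numbered 7312955 to 10835355 a sample. The values are normalized counts, that is, reads per gene divided by a size factor for the sample (0.834 to 1.191). The filter asked for 10 normalized counts or more in 3 or more samples. On the scale of log2(normalized count + 1), limma's moderated test was then applied, and an adjusted p (Benjamini-Hochberg over the 13303 genes tested) under 0.05 was the threshold. PBRM1 itself ran from 182.2 to 195.0 in Caki2+Vector and from 2431.7 to 2682.4 in Caki2+PBRM1, higher in each sample labelled as carrying PBRM1, and reads of the construct cannot be told apart from those of the cells' own gene. Of 10 markers of renal epithelium and its carcinoma, 9 had a mean over all 6 samples of at least 10 and CA9 did not (mean 1.6 with the empty vector and 10.3 with PBRM1). Their sum was 32434.1 to 33264.4 in Caki2+Vector against 34100.5 to 35017.9 in Caki2+PBRM1, and its members went both ways, with CDH6 and VIM among those higher and KRT8 and KRT18 lower past the threshold. Of 10 markers of leukocytes, endothelium and fibroblasts 1 did (PDGFRB), the sum of each list was at most 25.8, and CD3E and CDH5 were listed at 0 in every sample. The part of the renal markers in the results was not tested. Caki2+Vector A stood apart from its group, with a chi-square per degree of freedom of 3.09 and 2.84 against replicates B and C, beside 1.34 between those and 1.19 to 1.22 within Caki2+PBRM1. In bulk RNA, more cells that express a gene and more RNA per cell cannot be told apart.

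All 10 Polycomb subunit genes passed the filter. JARID2 rose and CBX7 fell in Caki2+PBRM1, and the other 8 did not pass the threshold. Of all 13303 genes tested, 29.2% passed the threshold, 16.2% as higher and 13.0% as lower in Caki2+PBRM1, so 2 of 10, with 1 in each direction, is not a result about these genes as a set. The median log2 fold change of the subunit genes was -0.053 and the median of its size 0.078, beside -0.004 and 0.141 over all genes tested.

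**Figure D1:**
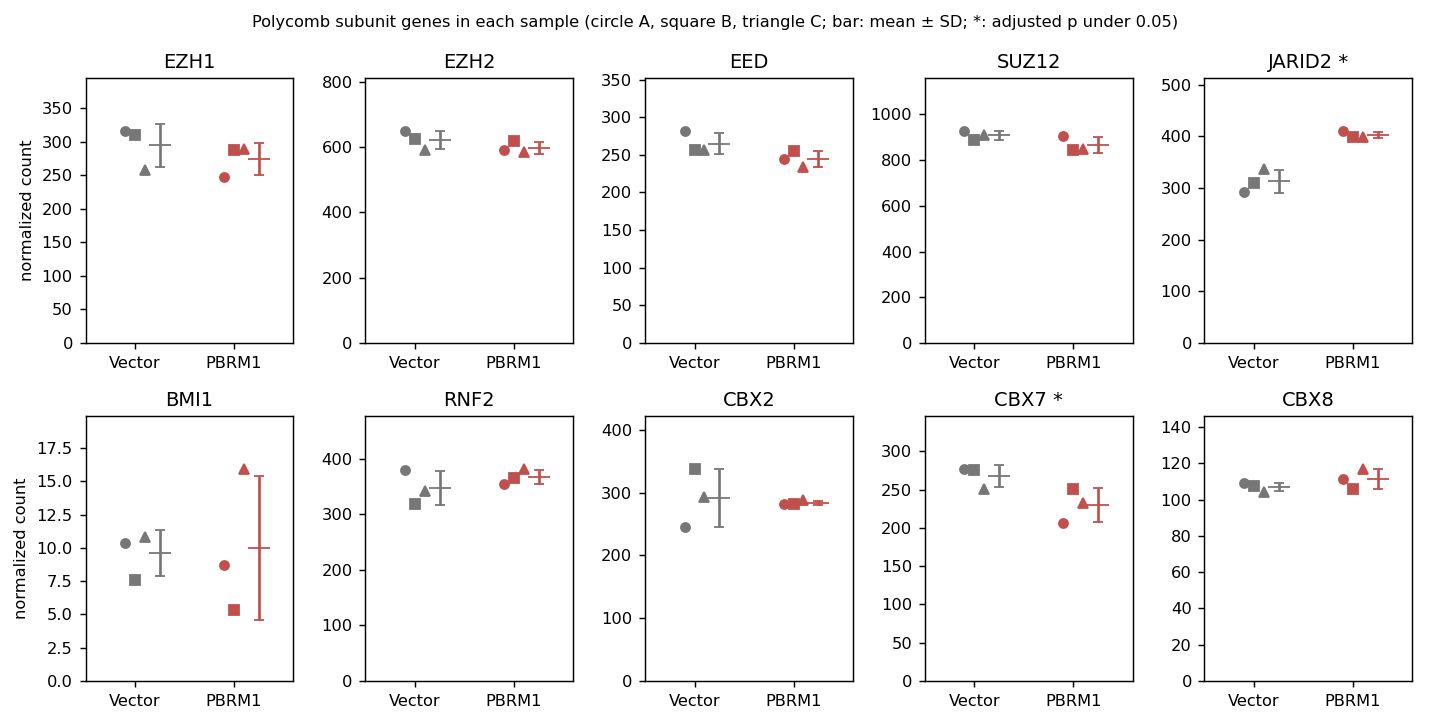
Normalized count (y axes, linear and starting at 0, each gene on its own scale) of the 10 Polycomb subunit genes in the 3 Caki2+Vector (grey) and 3 Caki2+PBRM1 (red) samples, with replicates A (circle), B (square) and C (triangle) and the mean ± SD beside them. JARID2 lies at 398.7 to 409.4 in Caki2+PBRM1 and at 292.5 to 335.6 in Caki2+Vector, and the asterisks mark JARID2 and CBX7, with an adjusted p under 0.05.

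The catalytic subunits of PRC2 were close to level. EZH2 (chromosome 7 of GRCh37, 148504349 to 148581413, minus strand), the methyltransferase that is prominent in dividing cells, had 648.5, 626.4 and 592.1 normalized counts in Caki2+Vector A, B and C, and 592.5, 618.6 and 584.1 in Caki2+PBRM1 A, B and C. The groups overlapped, since Caki2+PBRM1 B lay above Caki2+Vector C. The log2 fold change of EZH2 was -0.06 (SE 0.058, 95% interval -0.17 to 0.06, adjusted p = 0.51 from limma). EZH1 (chromosome 17, 40852293 to 40897067, minus strand), the paralog known for its presence in resting cells, had 315.2, 309.9 and 257.7 in Caki2+Vector and 247.0, 287.1 and 288.7 in Caki2+PBRM1. Here too the groups overlapped, with Caki2+Vector C and Caki2+PBRM1 A as the low samples. Its log2 fold change was -0.10 (95% interval -0.28 to 0.08, adjusted p = 0.42 from limma).

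Because a ratio within a sample does not depend on the scaling between samples, the paralogs were also compared directly. The log2 ratio of EZH2 to EZH1 was 1.08 ± 0.10 (SD, n = 3) with the empty vector and 1.13 ± 0.12 (SD, n = 3) with PBRM1 (exact permutation p = 0.6, two-sided, where 3 against 3 cannot go below 0.1). The difference of 0.04 was smaller than either SD. Per length of the MANE Select transcript, EZH2 made up 78.7% ± 1.2 (SD, n = 3) of the summed EZH1 and EZH2 level with the empty vector, and 79.2% ± 1.4 (SD, n = 3) with PBRM1. With the length of all merged exons instead, which for EZH2 is 10774 bases rather than 2654, these shares were 57.9% and 58.6%, so the excess of EZH2 over EZH1 depends in size on the length used and its direction does not.

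SUZ12 and EED, the partners of the catalytic subunit, had small negative estimates that did not pass the threshold. SUZ12 (chromosome 17, 30264026 to 30328057, plus strand) had 925.9, 888.1 and 910.9 normalized counts in Caki2+Vector and 905.5, 842.6 and 846.8 in Caki2+PBRM1, giving a log2 fold change of -0.07 (95% interval -0.18 to 0.03, adjusted p = 0.32 from limma). Caki2+PBRM1 A lay within the Caki2+Vector values and the other Caki2+PBRM1 samples lay below them. SUZ12 has a partial copy, SUZ12P1, which was counted separately at 54.2 to 73.1 in the 6 samples, so some reads of SUZ12 may have been split or lost. EED (chromosome 11, 85912254 to 85989855, plus strand) had 281.2, 257.0 and 256.5 in Caki2+Vector and 244.8, 255.1 and 234.2 in Caki2+PBRM1. All Caki2+PBRM1 values of EED were below all Caki2+Vector values, although by as little as 255.1 against 256.5, and its log2 fold change stood at -0.11 (95% interval -0.28 to 0.05, adjusted p = 0.31 from limma). With JARID2, EED is 1 of 2 subunit genes whose groups did not overlap, beside 41.7% of all genes tested.

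JARID2 was the subunit gene with the largest difference. JARID2 (chromosome 6, 15246300 to 15522273, plus strand), the accessory subunit whose promoter windows are printed above, had 292.5, 308.9 and 335.6 normalized counts in Caki2+Vector A, B and C, and 409.4, 399.1 and 398.7 in Caki2+PBRM1 A, B and C. Every Caki2+PBRM1 sample was above every Caki2+Vector sample, and the Caki2+PBRM1 samples lay close together. The mean went from 312.4 ± 21.7 (SD, n = 3) to 402.4 ± 6.1 (SD, n = 3), which is a log2 fold change of 0.37 with an SE of 0.071 (95% interval 0.22 to 0.51, adjusted p = 0.0001984 from limma), or 1.29-fold. On 280 to 475 reads per sample, its log2 fold change lay between 0.32 and 0.42 under the 15 other fits tried, with adjusted p from 8.79e-05 to 0.0036 (limma, edgeR and DESeq2).

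Other accessory subunit genes of PRC2 did not pass the threshold. JARID2 shares with AEBP2 the form of PRC2 that lacks the Polycomb-like proteins, and AEBP2 had 494.2, 437.4 and 492.6 in Caki2+Vector and 519.9, 479.1 and 515.3 in Caki2+PBRM1, with a log2 fold change of 0.09 (adjusted p = 0.32 from limma). MTF2, a Polycomb-like protein of the alternative form, had a log2 fold change of 0.00 (95% interval -0.14 to 0.15, adjusted p = 0.98 from limma). Ratios of JARID2 to other subunits were computed after these values were seen and are given without a test. The log2 ratio of JARID2 to EZH2 was -1.15, -1.02 and -0.82 in Caki2+Vector and -0.53, -0.63 and -0.55 in Caki2+PBRM1, a difference in means of 0.42. The differences were 0.44 for the ratio to SUZ12, 0.36 for that to MTF2 and 0.28 for that to AEBP2. For each of the 4 ratios the groups did not overlap, but all 4 share JARID2 and are not separate observations. Leaving out each sample in turn, the ratio to EZH2 differed by 0.35 to 0.51 and the ratio to AEBP2 by 0.20 to 0.33.

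**Figure D2:**
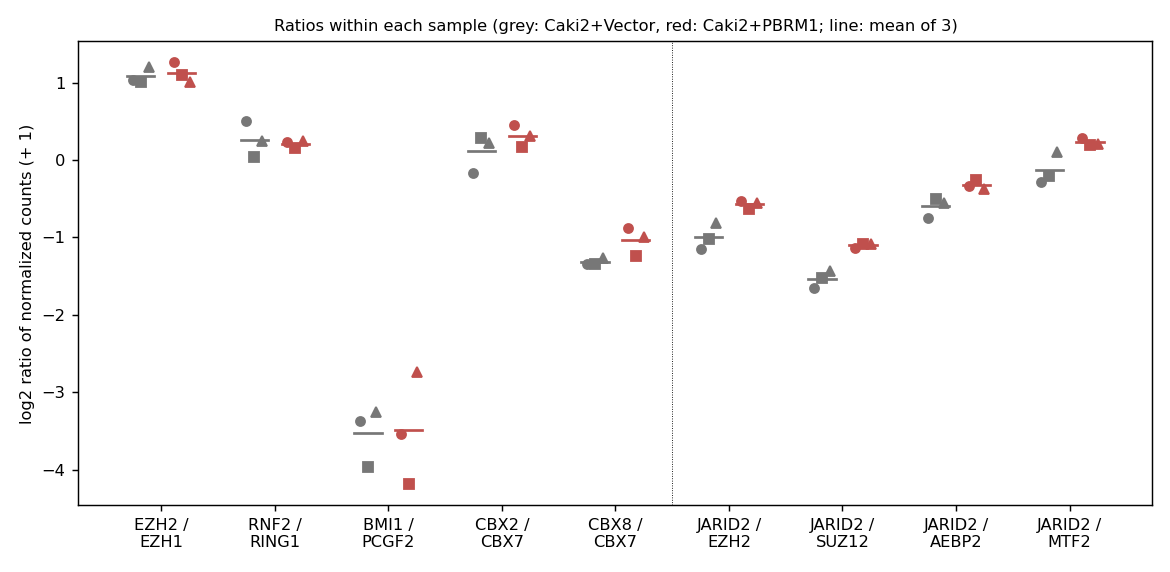
Log2 ratio of the normalized counts + 1 of a pair of genes within each sample (y axis) for 5 paralog pairs and, right of the dotted line, 4 ratios of JARID2 added after its values were seen. Points are the samples (grey Caki2+Vector, red Caki2+PBRM1, circle A, square B, triangle C) and lines the means of 3, and the EZH2 to EZH1 means are 1.08 and 1.13, whereas the JARID2 to EZH2 means are -0.99 and -0.57.

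In PRC1, the ligase gene RNF2 (chromosome 1, 185014658 to 185071735, plus strand) had 379.6, 319.3 and 342.8 normalized counts in Caki2+Vector and 355.3, 366.2 and 381.0 in Caki2+PBRM1. The groups overlapped, with the lowest and nearly the highest value both in Caki2+Vector. The log2 fold change of RNF2 was 0.08 (95% interval -0.07 to 0.23, adjusted p = 0.42 from limma). RING1, its paralog, had a log2 fold change of 0.14 (95% interval -0.02 to 0.29, adjusted p = 0.19 from limma). The log2 ratio of RNF2 to RING1 was 0.26 ± 0.23 (SD, n = 3) with the empty vector and 0.21 ± 0.05 (SD, n = 3) with PBRM1 (exact permutation p = 0.8).

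BMI1 (chromosome 10, 22610028 to 22620413, plus strand), a PCGF subunit of canonical PRC1, was barely counted. It had 10.4, 7.6 and 10.8 normalized counts in Caki2+Vector and 8.7, 5.3 and 15.9 in Caki2+PBRM1, on 6 to 19 reads per sample. No difference was detected at this depth, with a log2 fold change of -0.05 and a wide 95% interval, from -0.81 to 0.71 (adjusted p = 0.94 from limma). These low values cannot be read as low expression, since BMI1 shares exons with the read-through gene COMMD3-BMI1 and the handling of reads that fall on more than 1 gene is not given in the sources used here. In GENCODE on GRCh37, 28.2% of the bases of the BMI1 transcript and 60.3% of those of COMMD3 lie in exons of COMMD3-BMI1, and COMMD3-BMI1 was listed at 0 in all 6 samples, while COMMD3 had 66.1 to 98.5. The extent of the overlap in the annotation used for counting was not examined here. The log2 ratio of BMI1 to PCGF2 was -3.53 ± 0.38 (SD, n = 3) and -3.49 ± 0.73 (SD, n = 3) (exact permutation p = 1.0), and PCGF2 is itself uncertain because 64.7% of its exon bases lie in exons of CISD3.

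Of the 3 chromodomain subunit genes, CBX7 fell and CBX2 and CBX8 did not pass the threshold. CBX7 (chromosome 22, 39516172 to 39548685, minus strand) had 276.4, 275.9 and 250.5 normalized counts in Caki2+Vector and 205.8, 250.7 and 232.5 in Caki2+PBRM1. The groups touched, since Caki2+PBRM1 B was just above Caki2+Vector C. The mean went from 267.6 ± 14.8 (SD, n = 3) to 229.6 ± 22.6 (SD, n = 3), which is a log2 fold change of -0.22 with an SE of 0.086 (95% interval -0.40 to -0.05, adjusted p = 0.049 from limma). The call was lost with DESeq2 (adjusted p = 0.17), with no filter on low values (adjusted p = 0.063), and without Caki2+Vector A (0.077), Caki2+Vector B (0.14), Caki2+PBRM1 A (0.27) or Caki2+PBRM1 C (0.097), with estimates from -0.29 to -0.15 throughout.

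CBX2 (chromosome 17, 77751947 to 77761782, plus strand) had 245.2, 337.3 and 292.4 normalized counts in Caki2+Vector and 281.6, 281.8 and 287.9 in Caki2+PBRM1. The Caki2+PBRM1 values fell inside the wide range of Caki2+Vector, and the log2 fold change was -0.03 (95% interval -0.21 to 0.16, adjusted p = 0.85 from limma). CBX8 (chromosome 17, 77765931 to 77775482, minus strand), a neighbor of CBX2, had 108.9, 107.7 and 104.3 in Caki2+Vector and 111.6, 105.8 and 116.7 in Caki2+PBRM1. Its groups overlapped, and the log2 fold change was 0.06 (95% interval -0.17 to 0.29, adjusted p = 0.75 from limma). The log2 ratio of CBX8 to CBX7 was -1.34, -1.35 and -1.26 in Caki2+Vector and -0.88, -1.24 and -0.99 in Caki2+PBRM1, a difference of 0.28 without overlap (exact permutation p = 0.1, the smallest possible, and 0.5 after adjustment over the 5 paralog ratios). The ratio of CBX2 to CBX7 overlapped between groups, at 0.11 ± 0.25 (SD, n = 3) and 0.31 ± 0.14 (SD, n = 3) (exact permutation p = 0.4).

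Levels of different genes were compared per length, as normalized counts per kb of the MANE Select transcript. In Caki2+Vector the order was EZH2 (234.5), SUZ12 (202.1), EED (126.9), RNF2 (101.9), CBX7 (65.1), EZH1 (63.5), CBX2 (63.0), JARID2 (52.0), CBX8 (28.5) and BMI1 (2.71). The values of CBX7, EZH1, CBX2 and JARID2 overlapped from each to the next, and the other neighbors did not. In Caki2+PBRM1 the first 4 and the last 2 kept their places, and JARID2 moved to the fifth place at 67.0 ± 1.02 (SD, n = 3), above CBX2, EZH1 and CBX7, which overlapped from each to the next. With merged exons as the length, SUZ12 (138.6) and RNF2 (88.9) led in Caki2+Vector and EZH2 had 57.8. The order thus rests on the transcript lengths. CBX8 and BMI1 stayed last in both groups, but with merged exons CBX8 overlapped CBX7 in Caki2+PBRM1. The last place of BMI1 cannot be read as low expression, given the exons it shares with COMMD3-BMI1.

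**Figure D3:**
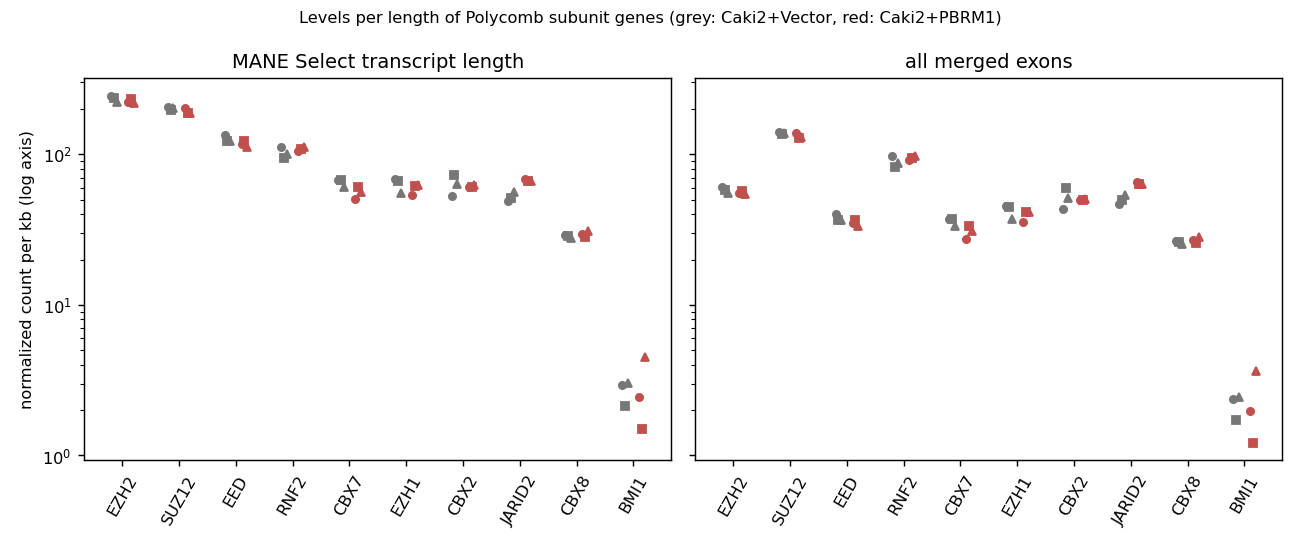
Normalized count per kb (log y axis) of the 10 Polycomb subunit genes, with the length of the MANE Select transcript on the left and of all merged exons on the right. Points are the samples (grey Caki2+Vector, red Caki2+PBRM1, circle A, square B, triangle C), genes are ordered by their left-hand Caki2+Vector mean from EZH2 at 234.5 to BMI1 at 2.71, and EZH2 drops to 57.8 on the right.

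The wider Polycomb machinery was read from a list of 44 further genes found in the files, of which 43 were tested and ASXL3 was below the filter with 0 to 1 read per sample. Of the 43, 7 rose, 4 fell and 32 did not pass, a share of 25.6% beside the 29.2% of all genes tested, with a median log2 fold change of -0.018. None of the 8 other PRC2 genes tested (RBBP4, RBBP7, AEBP2, PHF1, MTF2, PHF19, C17orf96 and C10orf12) passed the threshold in limma, and 0 of them had an unadjusted p under 0.05, and edgeR and DESeq2 also called 0 of them. Their log2 fold changes lay between -0.06 and 0.13.

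Among the PRC1 genes, PHC2, a Polyhomeotic subunit of canonical PRC1, rose most clearly. PHC2 had 579.4, 608.4 and 592.1 normalized counts in Caki2+Vector and 742.0, 760.8 and 778.0 in Caki2+PBRM1, without overlap, and the log2 fold change was 0.36 with an SE of 0.055 (adjusted p = 7.54e-06 from limma). PHC1 and PHC3, its paralogs, had -0.13 (adjusted p = 0.64) and -0.04 (adjusted p = 0.52). SCML1, of the Scm-like family, fell from 231.2 ± 1.5 to 188.2 ± 13.6 (SD, n = 3 each), a log2 fold change of -0.30 (adjusted p = 0.0096 from limma).

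Of the 5 PCGF genes other than BMI1, PCGF5 and PCGF6 fell, and PCGF1, PCGF2 and PCGF3 did not pass, with log2 fold changes from -0.15 to -0.04. Of all genes tested, 13.0% were called lower, and with so few PCGF genes the count is not a result about that family. PCGF6 fell from 110.8, 112.4 and 118.7 in Caki2+Vector to 80.2, 81.8 and 95.7 in Caki2+PBRM1, giving a log2 fold change of -0.41 with an SE of 0.121 (adjusted p = 0.011 from limma). PCGF5 fell from 753.5 ± 59.1 to 653.1 ± 25.2 (SD, n = 3 each), a log2 fold change of -0.20 (adjusted p = 0.0093 from limma). E2F6, the DNA-binding partner of PCGF6 in variant PRC1, fell as well, by 0.24 on the log2 scale (adjusted p = 0.016 from limma). BCOR, a partner of PCGF1, rose by a log2 fold change of 0.24 (adjusted p = 0.0086 from limma) and USP7, a deubiquitinase found with variant PRC1, by 0.20 (adjusted p = 0.0002963 from limma). The groups did not overlap for PCGF5, PCGF6, E2F6, BCOR or USP7, which were named because they passed the threshold. Of the 43 other Polycomb genes tested, 8 lay wholly higher and 4 wholly lower in Caki2+PBRM1. Among all genes tested, the groups did not overlap for 41.7%.

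Outside PRC1 and PRC2, 2 of 5 genes of the PR-DUB complex and its partners (BAP1 and FOXK1) and 1 of 2 H3K27 demethylase genes (KDM6B) rose, beside 16.2% of all genes tested. BAP1, the deubiquitinase of histone H2A that is itself mutated in clear cell renal carcinoma, had 650.4, 696.3 and 720.3 normalized counts in Caki2+Vector and 775.6, 855.1 and 783.1 in Caki2+PBRM1, giving a log2 fold change of 0.22 with an SE of 0.057 (adjusted p = 0.0032 from limma). FOXK1, a transcription factor that binds with BAP1, had 0.16 (adjusted p = 0.016 from limma), and its paralog FOXK2 (0.05, adjusted p = 0.61) did not pass, nor did ASXL1 and ASXL2, partners of BAP1. KDM6B, a demethylase of H3K27, rose from 67.5 ± 10.6 to 87.0 ± 4.3 (SD, n = 3 each), a log2 fold change of 0.37 (adjusted p = 0.045 from limma), whereas KDM6A, its paralog, had -0.04 (adjusted p = 0.73). Under the 16 alternatives, PHC2 and USP7 passed in all, BAP1, BCOR and PCGF5 in 15, SCML1 in 14, PCGF6 and E2F6 in 13, FOXK1 in 10 and KDM6B in 8.

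**Figure D4:**
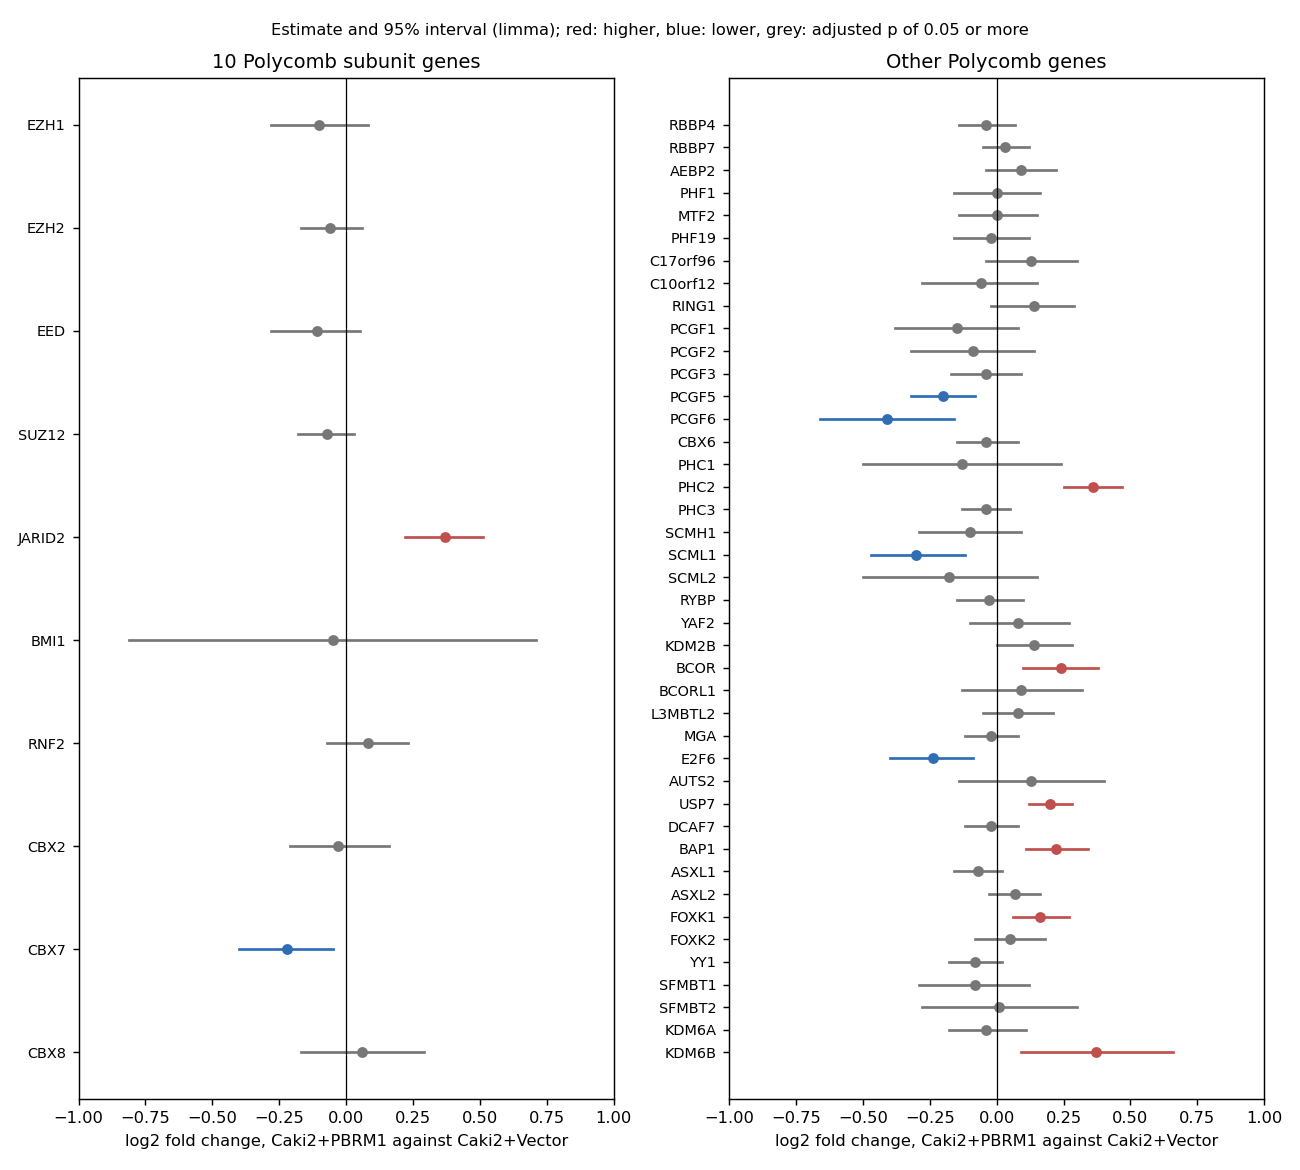
Log2 fold change of Caki2+PBRM1 against Caki2+Vector (x axis) with its 95% interval from limma for the 10 Polycomb subunit genes on the left and for other Polycomb genes on the right. Red marks an adjusted p under 0.05 with a higher value in Caki2+PBRM1, blue with a lower value, and grey an adjusted p of 0.05 or more, and the interval of BMI1, from -0.81 to 0.71, is the widest on the left.

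Since EZH2 is known to follow cell division, 20 genes of DNA replication that E2F factors control were set beside it. Of these 8 fell and 2 rose, beside 13.0% and 16.2% of all genes tested, with log2 fold changes between -0.34 and 0.30 and a median of -0.129, beside -0.06 for EZH2. Whether the values of EZH2 and the replication genes are related was not tested.

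Genes known to carry Polycomb marks in embryonic stem cells were read from a list of 30 developmental regulators, without any measure of those marks in Caki2. Of these, 13 were expressed above the filter, 4 rose and 2 fell, which is 46.15% beside 29.2% of all genes tested. The difference between these shares was not tested. PAX6 had 8.5, 5.7 and 13.2 in Caki2+Vector and 14.1, 25.8 and 19.3 in Caki2+PBRM1. It reached 10 in every sample of Caki2+PBRM1 only, and WT1 in every sample of Caki2+Vector only. The group where they are high thus met the filter alone, so the share is not a result about these genes as a set. WT1 fell from 32.1 ± 2.0 to 10.3 ± 5.5 normalized counts (SD, n = 3 each), a log2 fold change of -1.68 (adjusted p = 0.0001027 from limma), and MEIS2 by 0.49 on the log2 scale (adjusted p = 5.40e-06). PAX6 and NKX2-2 rose from low levels, by 1.06 on the log2 scale for the former (adjusted p = 0.013 from limma) and 0.68 for the latter (adjusted p = 0.044). CDKN2A and CDKN2B, the cell cycle inhibitor genes best known as targets of BMI1, were listed at 0 in all 6 samples. At a 95% level, a count of 0 leaves room for an expected count of up to 3 reads in a sample. Of 39 HOX genes, 28 were tested, 5 rose and 2 fell, with a median log2 fold change of 0.016. These 7 of 28 are no larger a share than the 29.2% of all genes tested, so the count is not a result about HOX genes. The largest log2 fold changes were in HOXC13 (1.45), HOXA13 (0.94), HOXB9 (0.93), HOXB13 (0.56) and HOXA4 (-0.49). Their adjusted p ran from 1.13e-05 to 0.0091 in limma. HOXC13 rests on only 4 to 27 reads per sample, and HOXB9 on 14 to 43. HOXC13 had 15.1, 5.7 and 4.8 normalized counts in Caki2+Vector and 29.2, 20.4 and 18.5 in Caki2+PBRM1. It reached 10 in every sample of Caki2+PBRM1 only.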

How the data were processed

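RNA was sequenced from 3 Caki2+Vector and 3 Caki2+PBRM1 samples, and each sample has a file of 25369 genes. According to the paper's methods, the authors enriched poly(A) RNA, removed adapters, poor reads and rRNA reads, aligned the rest to hg19 with STAR, counted with htseq-count on a UCSC annotation and normalized with DESeq2 (versions not given in the sources used here). The deposited values are a signal per gene: reads divided by a size factor for the sample, with no division by length. In every file 100% of values were whole multiples of 1 step (within 0.01 reads), so whole reads were recovered for the depth (7312955 to 10835355 reads per sample) and for the count tests. The precision this gave was an SE of 0.083 (median over genes) for a log2 fold change.

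Genes that reached 10 in 3 or more samples (13303) entered a fit of log2(value + 1) in limma 3.58.1 under R 4.3.3, with trended and robust variances, on all 6 samples and with no covariate, and p-values were adjusted over all genes tested. A fold change on this scale understates that of low genes. Paralog ratios were tested with an exact permutation test in scipy 1.17.1. Alternatives were edgeR 4.0.16 (quasi-likelihood, TMM), DESeq2 1.42.0 and voom on the recovered reads (each calling 4030, 2553 and 3993 genes, beside 3886 here), median-ratio size factors, pseudocounts of 0.5 and 4, no filter, at least 10 in every sample, a replicate block, an adjusted p under 0.01, and each replicate left out. The fits were tested on simulated counts with the same spread beyond counting noise (dispersion 0.005) for every gene and sample. That setting does not show how they handle a sample that stands apart, such as Caki2+Vector A.

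The subunit genes and the gene lists were chosen with earlier results of these data known. Named are all 10 subunit genes, their paralogs, of the other Polycomb genes those past the threshold, and of the developmental and HOX lists up to 5 of the largest changes past the threshold. Other genes named, such as CDKN2A, CDKN2B, AEBP2, MTF2, PHC1, PHC3 and KDM6A, were picked after their values were seen, as were the JARID2 ratios, the EZH shares and the 4 motifs. Some genes that passed the threshold are counted but not reported here by name. Coordinates and lengths are those of GENCODE v44lift37 on GRCh37, which is the build of hg19, and promoter sequences are those of RefSeq.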

Additional observations from a re-analysis of the deposited data

How the results depend on the processing

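The number of Polycomb subunit genes past the threshold was 2, and 1 with DESeq2, with no filter on low values and at an adjusted p under 0.01, with JARID2 as the gene that remained in each. Leaving out each sample in turn gave 1 to 2. The number of other Polycomb genes past the threshold was 11, but 5 with DESeq2 and 6 at an adjusted p under 0.01, and 5 to 11 with each sample left out, the lowest without Caki2+PBRM1 C and 7 without Caki2+PBRM1 A. Calls over all genes tested were 3886 in the main fit, 2553 with DESeq2, 2798 without Caki2+PBRM1 C and 2915 without Caki2+PBRM1 A. They ran from 2798 to 4154 with each sample left out. A stricter threshold calls fewer genes by construction, and otherwise the cause was not tested. The sign of BMI1 turned with edgeR (0.10) and DESeq2 (0.08), and leaving out samples took BMI1 from -0.20 to 0.29 and CBX2 from -0.15 to 0.08. BMI1 could not be tested under 4 alternatives, since it fell below the filter there. With each sample left out, the difference in the log2 ratio ran from -0.02 to 0.10 for EZH2 to EZH1, from -0.16 to 0.07 for RNF2 to RING1 and from -0.33 to 0.39 for BMI1 to PCGF2. The ratios of CBX2 and CBX8 to CBX7 kept their sign under all 9 alternatives each, with differences of 0.05 (without Caki2+Vector A) to 0.28 and of 0.20 to 0.38 as samples were left out, and JARID2 its call under all 15 fits.

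Across the groups the labels link samples only by a replicate letter, and what the letter stands for is not stated. Deviations from the group means correlated across genes at 0.006, -0.008 and 0.014 for samples with the same letter. With the replicate block, 2 subunit genes and 11 other Polycomb genes passed, as without it, and 4107 of all genes tested did. For BMI1, on 6 to 19 reads per sample, the interval of -0.81 to 0.71 is wide and leaves room for a difference in either direction.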
